A study of Homo sapiens with 18 samples.

Results

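The inhibitor of apoptosis genes BIRC2, BIRC3, BIRC5, BIRC6 and XIAP were followed through their splice junctions in neuroblastoma cells in which MYCN and SNRPD3 were switched in combination. SHEP.tet21n is a human neuroblastoma cell line that carries a MYCN transgene repressed by doxycycline (Dox), so that vehicle-treated cells express MYCN. Cells given 2 µg/mL Dox, renewed every 72 h, are written MYCN-, and cells given DMSO vehicle are written MYCN+. Both states were transfected with a non-targeting siRNA (SNRPD3+) or with siRNA #1 or siRNA #2 against SNRPD3 (SNRPD3-), and polyadenylated RNA was sequenced from 3 replicates of each of the 6 groups, 18 libraries in all. MYCN-/SNRPD3+ is called wildtype. All groups come from 1 line, each siRNA has its own possible off-target effects, and Dox itself differs between the MYCN states, so that Dox and loss of MYCN cannot be told apart. An intron was counted as a member when at least 1 of its splice sites matched an exon boundary annotated for one of the 5 genes. This gave 133 introns in 36 clusters, of 233650 introns in 51819 clusters. BIRC6 held 86 of them, BIRC2 and XIAP 17 each, BIRC5 8 and BIRC3 5, and none was shared with another gene.

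Inhibitor of apoptosis proteins carry a baculovirus repeat domain, through which several of them bind caspases or the mitochondrial antagonists of caspase inhibition. XIAP blocks caspases directly. BIRC2 and BIRC3 (cIAP1 and cIAP2) are ubiquitin ligases of tumour necrosis factor receptor signalling, and BIRC6 is a very large ubiquitin-conjugating enzyme. BIRC5 (survivin) is a member of the chromosomal passenger complex in mitosis, is often abundant in tumours including neuroblastoma, and is known for splice forms that keep or lose exon 3 or take in the extra exons 2B and 3B. SNRPD3 encodes SmD3, a core protein of the spliceosomal small nuclear ribonucleoproteins.

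Sequences of exons that the results turn on are given first, from hg38 on the plus strand, with exon bases in capitals and flanking intron bases in lower case. BIRC5 exon 3 is 118 bases long, all coding, and its length is not a multiple of 3. BIRC5 exon 2B is 69 bases long and held by 3 annotated transcripts, in which up to all 69 bases are coding. BIRC6 exon 14 is 90 bases long and all coding, and the lengths of exon 2B and exon 14 are multiples of 3. The sequences printed are those of BIRC5 exon 3 and BIRC6 exon 14, at chr17:78216654-78216791 and chr2:32435486-32435595.
BIRC5 exon 3: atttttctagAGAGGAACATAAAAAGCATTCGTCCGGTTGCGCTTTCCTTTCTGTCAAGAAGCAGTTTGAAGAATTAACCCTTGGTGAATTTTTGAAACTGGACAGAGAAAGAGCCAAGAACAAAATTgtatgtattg
BIRC6 exon 14: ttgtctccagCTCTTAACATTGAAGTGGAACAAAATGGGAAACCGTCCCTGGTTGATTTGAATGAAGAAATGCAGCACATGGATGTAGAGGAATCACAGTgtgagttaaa

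Of BIRC5 exon 3B, BIRC6 exon 25 and BIRC3 exon 7, only the splice sites are shown, with 10 exon bases and 20 intron bases each. BIRC5 exon 3B is 165 bases long, of which at most 21 are coding in the 2 annotated transcripts that hold it. BIRC6 exon 25 has 315 bases and BIRC3 exon 7 has 255, all coding. In that order, the 3′ and 5′ sites lie at chr17:78222808-78222837 and chr17:78222983-78223012, chr2:32464489-32464518 and chr2:32464814-32464843, and chr11:102335946-102335975 and chr11:102336211-102336240.
BIRC5 exon 3B 3′ splice site: gattgtcatttgccccttagGAGAGAGCTC
BIRC5 exon 3B 5′ splice site: CAGGAGAAAGgtagggcagtggttaagagc
BIRC6 exon 25 3′ splice site: tgcttttacttcttttgcagAAAGCAAAGC
BIRC6 exon 25 5′ splice site: GTCCAGAATGgtaaattatgttttaaatag
BIRC3 exon 7 3′ splice site: ttgttttcttttttataaagATGATTTATT
BIRC3 exon 7 5′ splice site: CATTTATTTGgtgagtgatagaaaattatt

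The measured value is the authors' deposited PSI, for each library the part of a cluster's junction reads that falls on each intron, printed here in percent. Reads per intron and library are not given, so the depth behind each value is unknown and values are given without intervals. Since PSI is relative to the other introns of the cluster, it holds no information on how strongly a gene is expressed or on retained introns. Of the member introns, 81 were annotated and 52 were not. All 52 of the latter had GT at the 5′ end and AG at the 3′ end, against 99.6% of all introns that were not annotated. So did 78 of the 81 annotated ones (96.3%), against 98.9% of all annotated introns. The other 3 began with GC, and 2 of these are BIRC2 introns described below. The neuroblastoma line could be checked only by whether its marker genes had introns in the table at all, and this was the case for 7 of 8 mesenchymal markers (not VIM) and for 2 of 8 adrenergic markers, HAND2 and GATA3. A gene without introns in the table may still be expressed, so these counts do not measure marker expression.

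To test differences, log2((PSI + 0.01)/(1 - PSI + 0.01)), called log2 odds here, was fitted with limma over the 18 libraries for all 152722 introns with a mean PSI from 1% to 99%. An intron was called at a Benjamini-Hochberg adjusted p under 0.05. Of the 133 member introns 88 were fitted, 39 lay below the range and 6 above it. The replicates of a group differed by very different amounts among the genes. The median SD within a group was 1.06 percentage points of PSI in the 5 fitted BIRC5 introns, 2.24 in the 9 of XIAP, 3.25 in the 60 of BIRC6, 12 in the 10 of BIRC2 and 13.7 in the 4 of BIRC3. Single introns departed from these medians, with SD from 0.612 to 22.1 points among the fitted introns of BIRC2.

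Few of the member introns differed beyond the replicate spread. With MYCN alone (MYCN+/SNRPD3+ against wildtype), 0 of 88 were called by limma, against 0.0543% of all fitted introns. An unadjusted p under 0.05 was found for 5 (5.68%), against 6.19% of all. With MYCN and siRNA #1 against wildtype 0 were called, against 0.278% of all, and 10 (11.4%) had an unadjusted p under 0.05, against 10.4%. With MYCN and siRNA #2 against wildtype 0 were called, against 0.11%, and 11 (12.5%) had an unadjusted p under 0.05, against 9.19%. The 3 comparisons share their wildtype libraries. At these background shares, less than 1 call would fall on 88 introns taken at the same rate.

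Knockdown within a MYCN state gave no member call by limma either. In MYCN+ cells 0 of 88 were called with siRNA #1 and 0 with siRNA #2, against 0.0144% and 0.0164% of all introns. An unadjusted p under 0.05 was found for 9 (10.2%) and 3 (3.41%), against 7.25% and 6.17% of all. In MYCN- cells 0 were called with either siRNA, against 0.0105% and 0.0151%. There 2 (2.27%) and 6 (6.82%) had an unadjusted p under 0.05, against 4.54% and 4.69%. The interaction, the knockdown difference in MYCN+ cells minus that in MYCN- cells, called 0 with both siRNAs, against 0.017% and 0.0138%. For it 7 (7.95%) and 1 (1.14%) had an unadjusted p under 0.05, against 4.07% and 3.97%. The knockdown averaged over both siRNAs and both MYCN states called 0, against 0.0242%, and 7 (7.95%) had an unadjusted p under 0.05, against 7.80%. The MYCN difference averaged over the 3 SNRPD3 states called 1 of 88 member introns, an intron of BIRC6, against 1.23% of all introns. In this comparison 9 (10.2%) had an unadjusted p under 0.05, against 11.7%.

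**Figure D1:**
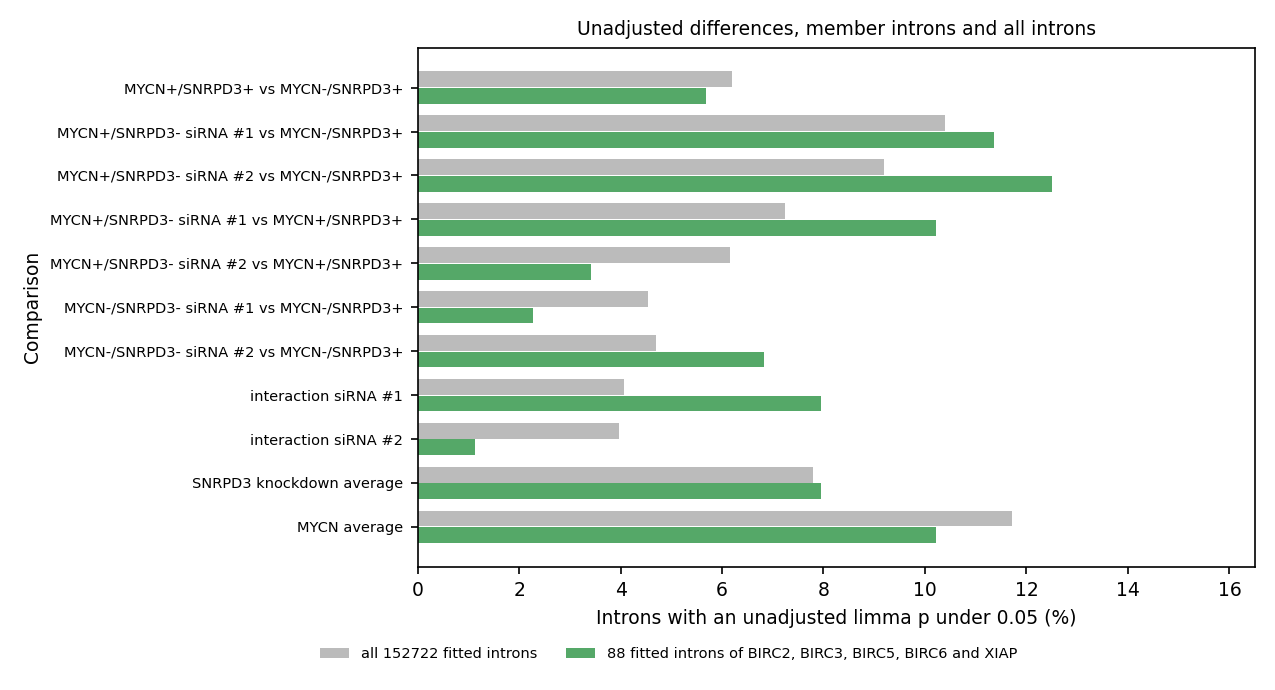
Share of introns (x axis, percent) with an unadjusted limma p under 0.05 in each of the 11 comparisons (y axis), for all 152722 fitted introns (grey bars) and the 88 fitted introns of the 5 genes (green bars). The green bars lie above the grey ones in some comparisons and below them in others, from 1.14% against 3.97% for the interaction with siRNA #2 to 12.5% against 9.19% for MYCN with siRNA #2.

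BIRC5 had 8 introns, all in 1 cluster between exon 2 and exon 4 of its 4-exon canonical transcript. The junction from exon 2 to exon 3 (78214789 to 78216664 on chromosome 17, given as the last base of one exon and the first of the next) had a mean PSI of 40.5%, and that from exon 3 to exon 4 (78216781 to 78223465) 46.5%. These are the junctions of full-length survivin. The junction from exon 2 to exon 4 (78214789 to 78223465), which leaves out exon 3, had a mean PSI of 5.00%. Exon 2B was entered from exon 2 (78214789 to 78215966) at 3.20% and left to exon 3 (78216034 to 78216664) at 3.19%. Exon 3B was entered from exon 3 (78216781 to 78222828) at 0.601% and left to exon 4 (78222992 to 78223465) at 0.80%. The last junction joined an unannotated 5′ site at 78220863 to exon 4 at 0.30%. The last 3 were below the fitted range, so 5 of the 8 were fitted.

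**Figure D2:**
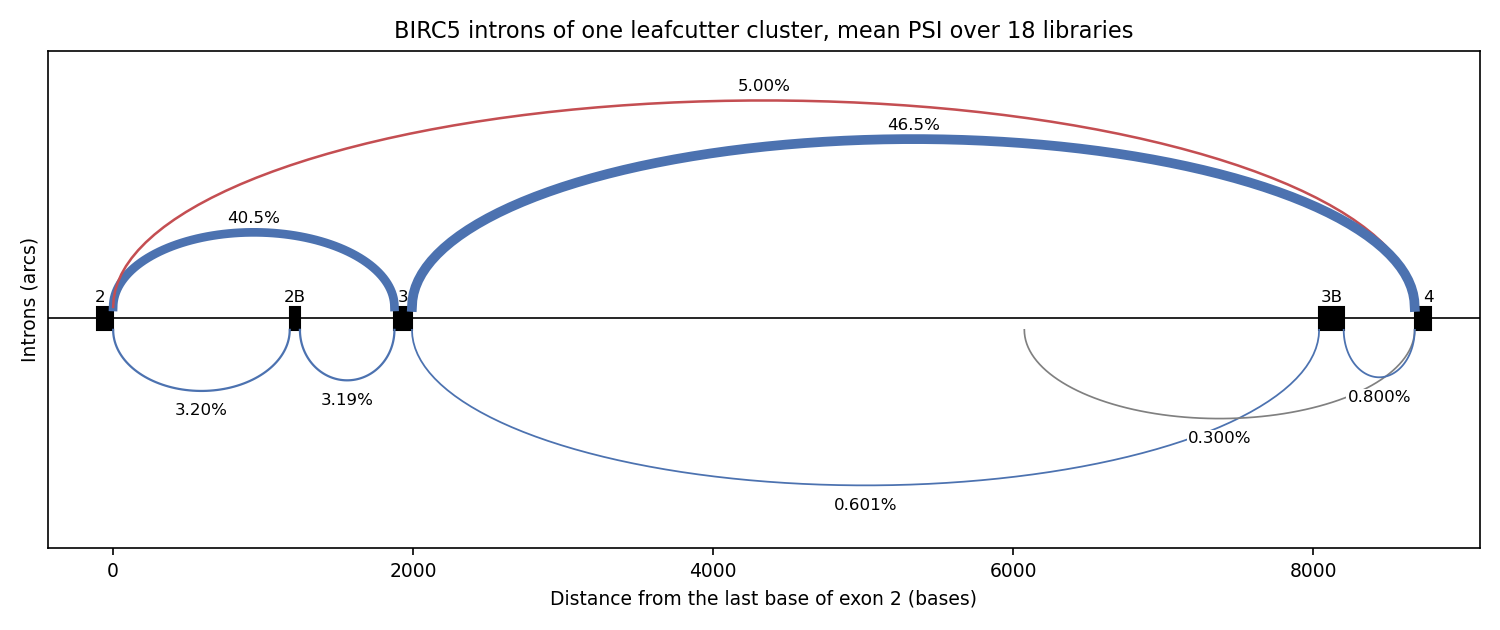
Map of the BIRC5 cluster, with distance from the last base of exon 2 in bases on the x axis, exons as boxes (2 and 4 drawn at a fixed width) and introns as arcs labelled with their mean PSI over 18 libraries. The arc that leaves out exon 3 is red, the unannotated one is grey, and junctions under 4% are drawn below the line. The 2 thick arcs of full-length survivin carry 40.5% and 46.5%.

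Skipping of BIRC5 exon 3 was expressed as a share, the PSI of the junction from exon 2 to exon 4 over the sum of that PSI and the mean PSI of both junctions of exon 3. In wildtype the share was 9.11%, 10.2% and 6.48% (8.59% ± 1.90, SD, n = 3). In MYCN+/SNRPD3+ cells it was 6.89%, 8.22% and 8.69% (7.93% ± 0.933). The control groups overlapped, and the difference of -0.656 points had an exact two-sided permutation p of 0.6, where 3 libraries against 3 cannot go below 0.1.

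With SNRPD3 knockdown 8 of 12 libraries lay above the highest control library, and the other 4 were within the range of the controls. In MYCN-/SNRPD3- cells the share was 11.3%, 11.7% and 8.57% with siRNA #1 and 10.3%, 12.1% and 10.8% with siRNA #2. The MYCN+/SNRPD3- libraries had 9.52%, 11.1% and 19.5% with siRNA #1 (13.4% ± 5.35) and 9.80%, 7.73% and 13.1% with siRNA #2 (10.2% ± 2.69). The value of 19.5% stood apart from the other 17 libraries, which reached 13.1% at most. Exon skipping in other genes was also higher in most knockdown libraries. Its mean share over 19086 exon sets was 37.6% to 38.5% in the 6 control libraries and 38.4% to 41.8% in the 12 knockdown libraries, of which 11 were above the highest control. The library at 19.5% for BIRC5 was also the highest in other genes, at 41.8%. The part of this in the BIRC5 values was not tested.

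None of the planned comparisons of exon 3 skipping passed the threshold. Knockdown differed from control by 3.84 points in MYCN+ cells (exact permutation p = 0.155, n = 6 and 3) and by 2.2 points in MYCN- cells (exact permutation p = 0.0714, n = 6 and 3), and MYCN with knockdown differed from wildtype by 3.19 points (exact permutation p = 0.274). The interaction was 1.64 points (exact permutation p = 0.648). Averaged over both MYCN states, a comparison added after seeing the data, the 12 knockdown libraries had 11.3% ± 2.98 against 8.26% ± 1.39 in the 6 controls, a difference of 3.02 points with 11 of 12 above the control median. Its exact permutation p was 0.0255 and became 0.107 when adjusted over all 21 share tests. Without the library at 19.5% the difference was 2.25 points (exact permutation p = 0.0113, adjusted 0.075). In the limma fit over all introns the junction from exon 2 to exon 4 was 0.42 ± 0.16 (SE) log2 odds higher with knockdown on average, with an adjusted p of 0.515.

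Exon 3B, in which the reading frame ends in the annotated transcripts, had lower shares with SNRPD3 knockdown, a difference that passed the threshold only in a comparison averaged over MYCN states and added after seeing the data. Its share is the PSI of the junction into exon 3B over the sum of that PSI and the PSI of the junction from exon 3 to exon 4. In the controls it was 1.56%, 1.69% and 1.48% in wildtype and 1.44%, 1.80% and 1.46% in MYCN+/SNRPD3+ cells. In MYCN- cells it was 0.918%, 1.22% and 0.835% with siRNA #1 and 1.48%, 1.45% and 1.17% with siRNA #2. In MYCN+ cells it was 0.884%, 0.916% and 1.16% with siRNA #1 and 1.13%, 1.22% and 1.22% with siRNA #2. All 6 knockdown libraries of MYCN+ cells lay below both control groups, while siRNA #2 in MYCN- cells overlapped the controls.

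In MYCN+ cells the exon 3B share was 0.479 points lower with knockdown, 1.09% ± 0.15 (n = 6) against 1.57% ± 0.204 (n = 3), with an exact permutation p of 0.0119, the smallest that 6 libraries against 3 can give, and an adjusted p of 0.0595 over the 15 planned tests. MYCN with knockdown against wildtype gave -0.486 points with the same exact permutation p of 0.0119. In MYCN- cells the difference was -0.394 points (exact permutation p = 0.0476, adjusted 0.179), and the interaction was -0.0848 points (exact permutation p = 0.773). Averaged over both MYCN states the share was 1.13% ± 0.212 in 12 knockdown libraries and 1.57% ± 0.145 in 6 controls. All 12 were below the control median and 10 were below the lowest control, with an exact permutation p of 0.000709 and 0.0149 when adjusted over 21 tests. The adjusted p was 0.0536 without wildtype replicate 1 and 0.0536 without wildtype replicate 2. MYCN alone differed by -0.00774 points (exact permutation p = 0.9). In a limma fit without the PSI filter, the junction into exon 3B was lower with knockdown by 0.19 ± 0.06 (SE) log2 odds and that out of it by 0.16 ± 0.07, with adjusted p of 0.412 and 0.657 over all introns, so that neither was called there.

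The exon 2B share, formed likewise from the mean of both exon 2B junctions and the junction from exon 2 to exon 3, was 9.04%, 10.1% and 7.06% in wildtype. In MYCN+/SNRPD3+ cells it was 4.35%, 8.57% and 8.53%, a range that includes every other value of MYCN+ cells. In MYCN+ cells with knockdown it was 5.99%, 6.11% and 5.69% with siRNA #1 and 6.87%, 6.03% and 5.77% with siRNA #2, all below the lowest wildtype library. In MYCN- cells with knockdown it was 7.65%, 9.22% and 4.94% with siRNA #1 and 7.80%, 10.7% and 6.84% with siRNA #2, across the wildtype range. MYCN with knockdown differed from wildtype by -2.65 points, 6.08% ± 0.421 (n = 6) against 8.73% ± 1.53 (n = 3), with an exact permutation p of 0.0119 and an adjusted p of 0.0595. Knockdown within MYCN+ cells differed by -1.07 points (exact permutation p = 0.262), and MYCN on average over all 18 libraries, a comparison added later, by -1.71 points (exact permutation p = 0.0378, adjusted 0.132). The junction out of exon 2B was lower with MYCN on average by 0.28 ± 0.11 (SE) log2 odds, with an adjusted limma p of 0.285. For the junction into exon 2B the MYCN average was -0.27 ± 0.19 (SE) log2 odds, with an adjusted limma p of 0.672.

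**Figure D3:**
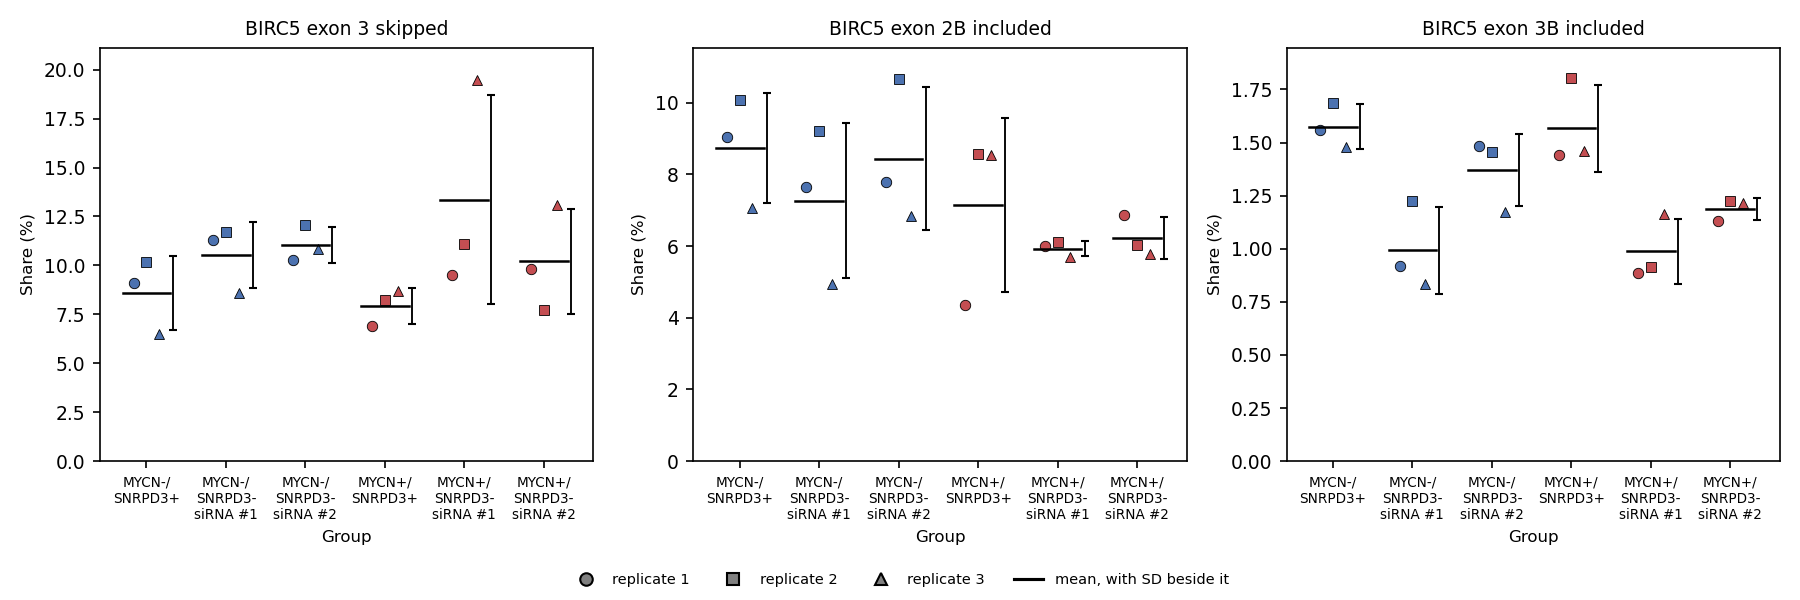
BIRC5 exon 3 skipping, exon 2B and exon 3B shares in percent (y axes, each from 0) in the 6 groups (x axes). Symbols are the 3 replicates, horizontal lines group means and bars beside them SD, with MYCN- in blue and MYCN+ in red. Exon 3B lies at 1.44% to 1.80% in the controls and at 0.835% to 1.48% with knockdown, and exon 3 skipping reaches 19.5% in 1 library.

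BIRC6 has 74 exons in its canonical transcript and had 86 introns in 24 clusters, of which 60 introns were fitted. It held the only member intron that was called. This intron joins exon 24 to exon 26 (32463381 to 32465065 on chromosome 2) and leaves out the 315 bases of exon 25. Both splice sites are annotated, but their joining is not. Its PSI was 0.0402%, 0.0491% and 0.0296% in wildtype. Among MYCN+ cells the PSI reached 1.38%, 4.22% and 2.81% in the control, 1.2%, 2.03% and 4.08% with siRNA #1 and 1.75%, 2.19% and 4.47% with siRNA #2. In MYCN- cells with siRNA #1 it was 1.80%, 0.0273% and 1.29%, and with siRNA #2 0.0256%, 0.0551% and 1.80%. All 9 MYCN+ libraries were thus at or above 1.2%, whereas 6 of 9 MYCN- libraries were below 0.06% and the other 3 overlapped the MYCN+ range.

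The exon 25 skip was 1.34 ± 0.29 (SE) log2 odds higher with MYCN on average, with an adjusted limma p of 0.0406, 2.68% ± 1.27 (n = 9) against 0.568% ± 0.81 (n = 9). Its mean PSI over all libraries was 1.62%, while the MYCN- mean was below the 1% minimum. The junction thus entered the fit through the libraries where it was high. Without the PSI filter its adjusted limma p was 0.0487. The exon 25 skip was not called in MYCN alone (1.84 ± 0.50 log2 odds, limma, adjusted p = 0.374). The average call depended on the settings. The adjusted p was 0.0726 with an offset of 0.05 and 0.0513 with the trend and robust options, and the call was lost without any 1 of 14 of the 18 libraries, with adjusted p up to 0.0851. Whether the libraries below 0.06% had any reads across the junction cannot be read from PSI. A second junction that leaves out exon 25 starts from a shorter form of exon 24 (32463282 to 32465065), had a mean PSI of 0.427% and was not fitted. It was at 1.21%, 0.0271% and 2.55% in wildtype, and its means were 0.285% ± 0.574 in 9 MYCN+ and 0.57% ± 0.907 in 9 MYCN- libraries, with overlapping ranges. Over both junctions, a sum formed after seeing the data, exon 25 was left out at 1.25%, 0.0762% and 2.58% in wildtype, and 2 of these 3 libraries lay within the MYCN+ range of 1.22% to 4.49%. The sum was 2.97% ± 1.26 (n = 9) with MYCN and 1.14% ± 1.09 (n = 9) without, 2.61 times as high, against 4.72 times for the called junction alone. With MYCN labels exchanged within each SNRPD3 state, the difference was 1.83 points for the sum (exact two-sided permutation p = 0.0107) and 2.11 points for the called junction (exact two-sided permutation p = 0.00175), both unadjusted. The junction was picked because limma had called it for the same difference in the same libraries, and it makes up most of the sum. These p-values are therefore no independent support for the call.

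In BIRC6, 19 introns left out canonical exons, of which 2 were annotated. Exon 14 (90 bases) was left out by the junction from exon 13 to exon 15 (32433804 to 32436053), with a mean PSI of 11%. Its PSI was 10.0%, 3.26% and 11.8% in wildtype and 7.81%, 9.19% and 16.7% in MYCN+/SNRPD3+ cells. With knockdown in MYCN+ cells it was 9.26%, 10.3% and 18.3% with siRNA #1 and 15.8%, 12.4% and 16.1% with siRNA #2, and in MYCN- cells 11.8%, 12.2% and 10.5% with siRNA #1 and 10.1%, 6.5% and 6.11% with siRNA #2. The groups overlapped, and the MYCN average of 0.54 ± 0.25 log2 odds had an adjusted limma p of 0.427. The junction from exon 14 to exon 15 in the same cluster was at 22.1% ± 5.31 in wildtype, 13.3% ± 3.34 with MYCN and siRNA #1 and 16.2% ± 2.59 with MYCN and siRNA #2. The other annotated skip, of exon 17 (134 bases), had a mean PSI of 0.557%.

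**Figure D4:**
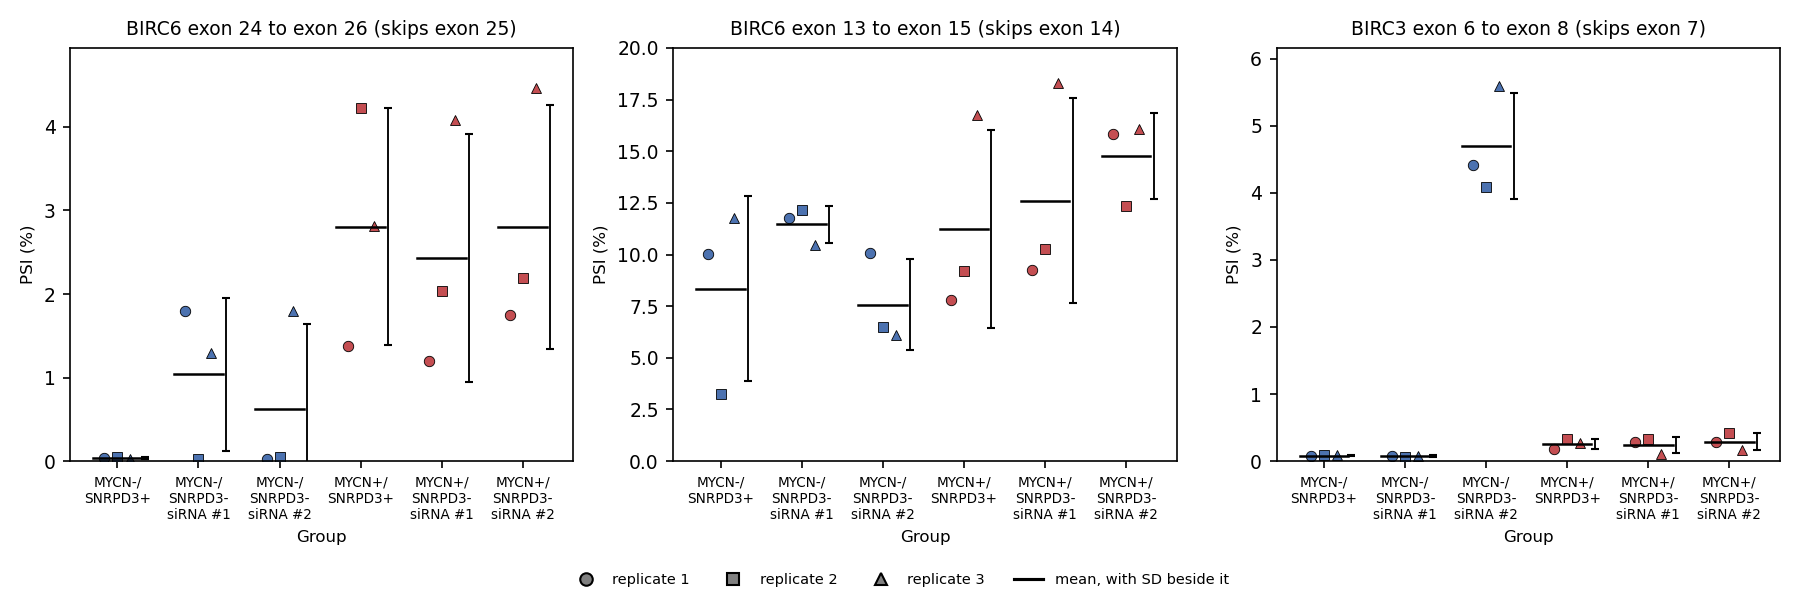
PSI in percent (y axes, each from 0) of the junctions that leave out BIRC6 exon 25, BIRC6 exon 14 and BIRC3 exon 7 in the 6 groups (x axes). Symbols are the 3 replicates, lines group means and bars beside them SD. The BIRC6 exon 25 skip is at or above 1.2% in every MYCN+ library, and the BIRC3 exon 7 skip is above 4% only in MYCN-/SNRPD3- siRNA #2.

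The junctions on either side of BIRC6 exon 17 showed the largest PSI differences of the gene between MYCN with knockdown and wildtype. Exon 16 to exon 17 (32439686 to 32441329) had 51.1% ± 6.34 in wildtype, 36.2% ± 1.44 with MYCN and siRNA #1 and 45.9% ± 3.57 with MYCN and siRNA #2. Exon 17 to exon 18 (32441462 to 32442065) had 48.9% ± 6.33, 63.1% ± 1.71 and 53.3% ± 3.17 in the same groups. With siRNA #1 and MYCN the first differed from wildtype by -0.86 ± 0.22 (SE) log2 odds and the second by 0.82 ± 0.23, with adjusted limma p of 0.122 and 0.174. PSI sums to 1 within a cluster, so a higher value of one junction lowers the other.

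BIRC6 also used pairs of 5′ sites at the ends of exons 23, 24 and 32, which differ by 12, 99 and 27 bases, all multiples of 3. These were picked out after their values were seen. The exon 23 pair is shown with the 12 bases between the sites in capitals, at chr2:32453933-32453964.
BIRC6 exon 23 donors: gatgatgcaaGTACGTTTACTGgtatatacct
The downstream site took 20.9% of the exon 23 pair on average, 84.1% of the exon 24 pair and 85.3% of the exon 32 pair. For exon 23 its share was 14.4%, 4.97% and 20.3% in wildtype. In MYCN- cells it was 26.1%, 26.4% and 25.9% with siRNA #1 and 23%, 33.3% and 21.2% with siRNA #2, so that all 6 were above the highest wildtype library. In MYCN+ cells it was 20.1% ± 4.84 in controls, 19.5% ± 5.59 with siRNA #1 and 20.7% ± 1.97 with siRNA #2. In the limma fit the junction from the downstream site differed from wildtype by 0.79 ± 0.34 log2 odds with siRNA #1 and by 1.00 ± 0.34 with siRNA #2 in MYCN- cells, with adjusted p of 1.0 and 0.938.

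BIRC3 had an intron with a pattern of its own, below the fitted range. It joins exon 6 to exon 8 (102331241 to 102336760 on chromosome 11), leaves out the 255 bases of exon 7, is not annotated, and had a mean PSI of 0.941%, just under the 1% minimum. In MYCN-/SNRPD3- siRNA #2 its PSI was 4.42%, 4.09% and 5.59%. In the other 15 libraries it was between 0.0679% and 0.422%, with a median of 0.163%. It was chosen after its values were seen. In the fit without the PSI filter it was 2.46 log2 odds higher with siRNA #2 than in wildtype, with an adjusted limma p of 1.76e-06, and the interaction with siRNA #2 was -2.42 (limma, adjusted p = 0.00012). When just the compared groups were fitted, these adjusted p were 0.0192 and 0.00267. There the PSI filter was applied to the compared groups, and the intron passed it through MYCN-/SNRPD3- siRNA #2. All these p-values come from the values for which the intron was chosen, so they describe the pattern and do not test it. With siRNA #1 in the same MYCN state the PSI was 0.0771% ± 0.00809, at the level of wildtype (0.0816% ± 0.00641), so the higher PSI was not shared by the siRNAs.

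The other BIRC3 junctions varied widely among replicates. Exon 6 to exon 7 (102331241 to 102335966) ranged from 27.9% to 97.8% and exon 7 to exon 8 (102336220 to 102336760) from 1.96% to 66.5%, the highest and lowest of these being MYCN+/SNRPD3- siRNA #2 replicate 1 at 97.8% and 1.96%. Replicate 3 of MYCN-/SNRPD3- siRNA #2 was at the other ends, 27.9% and 66.5%. An alternative first exon (102320006 to 102321837) had a mean PSI of 9.90% against 90.1% for exon 1, and only 9 different values in the 18 libraries. Repeated values of this kind need not be measured levels, and 9 member introns had one.

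BIRC2 was read mainly through the choice of its first exon. Exon 1 to exon 2 (102347376 to 102348598 on chromosome 11) had a mean PSI of 93.6%, with 2 other annotated first exons at 4.24% and 2.21%. Exon 1 had 92.2%, 95.8% and 84.5% in wildtype, 93.1%, 90.7% and 89.998% in MYCN+/SNRPD3+ cells, and 98.2%, 98.6% and 98.2% in MYCN-/SNRPD3- siRNA #2. In MYCN+ cells it was 95.5%, 93.7% and 99.96% with siRNA #1 and 93.2%, 95.6% and 96.7% with siRNA #2, while siRNA #1 in MYCN- cells gave 90.6%, 93.9% and 83.5%. Knockdown was 0.99 ± 0.40 log2 odds higher on average (limma, adjusted p = 0.553), and the second alternative first exon was lower by 1.11 ± 0.39 (limma, adjusted p = 0.457). The latter is given outside the rule for named introns, and its adjusted p was the smallest of the members in that comparison. Another cluster held the 2 junctions with GC at the 5′ end, from 102348764 to 102349878 and to 102350001, which ranged from 0.392% to 98.9% and from 0.206% to 32.4% over the libraries. The second had 0.459%, 0.206% and 0.468% with MYCN and siRNA #1 against 10.0%, 17.1% and 24.6% in MYCN+/SNRPD3+ cells, with an adjusted limma p of 0.666, and other groups held both low and high libraries.

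XIAP was read mainly through how exon 2, which holds 877 coding bases of its 909, was joined to the exons before it. The junction from exon 2 to exon 3 (123886539 to 123888619 on chromosome X) had a mean PSI of 72.7%. Exon 1 was joined to exon 2 (123860293 to 123885631) at 8.97% and to exon 3, leaving exon 2 out (123860293 to 123888619), at 7.85%. The skip from exon 1 had 10.7%, 11.2% and 5.96% in wildtype and 1.60%, 8.45% and 6.58% in MYCN+/SNRPD3+ cells. In MYCN- cells it was 10.7%, 11.6% and 7.94% with siRNA #1 and 10.6%, 9.29% and 6.76% with siRNA #2, and in MYCN+ cells 3.57%, 6.18% and 4.55% with siRNA #1 and 9.39%, 7.08% and 9.27% with siRNA #2. The MYCN states overlapped, at 6.30% ± 2.65 with MYCN and 9.41% ± 2.05 without (n = 9 each), and the average difference of -0.64 ± 0.25 log2 odds had an adjusted limma p of 0.294. Skips of exon 2 from 2 other first exons, at 123859905 and 123860545, had mean PSI of 2.59% and 2.62%. The junction from the first of these into exon 2 (123859905 to 123885631) was 0.409% ± 0.353 in wildtype and 2.54% ± 0.186 with MYCN and siRNA #2 (1.39 ± 0.40 log2 odds, limma, adjusted p = 0.221). Against wildtype it differed less with MYCN and siRNA #1 (0.61 ± 0.40, limma, adjusted p = 0.675) and with MYCN alone (0.65 ± 0.40, limma, adjusted p = 0.917). Its mean PSI was 0.785% in MYCN- libraries, below the 1% minimum, and 1.64% in MYCN+ libraries. This junction thus entered the fit through the libraries where it was high. Further along, the junction from exon 3 to exon 4 stayed between 47.1% and 55.1% and that from exon 5 to exon 6 between 96.9% and 99.99%.

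**Figure D5:**
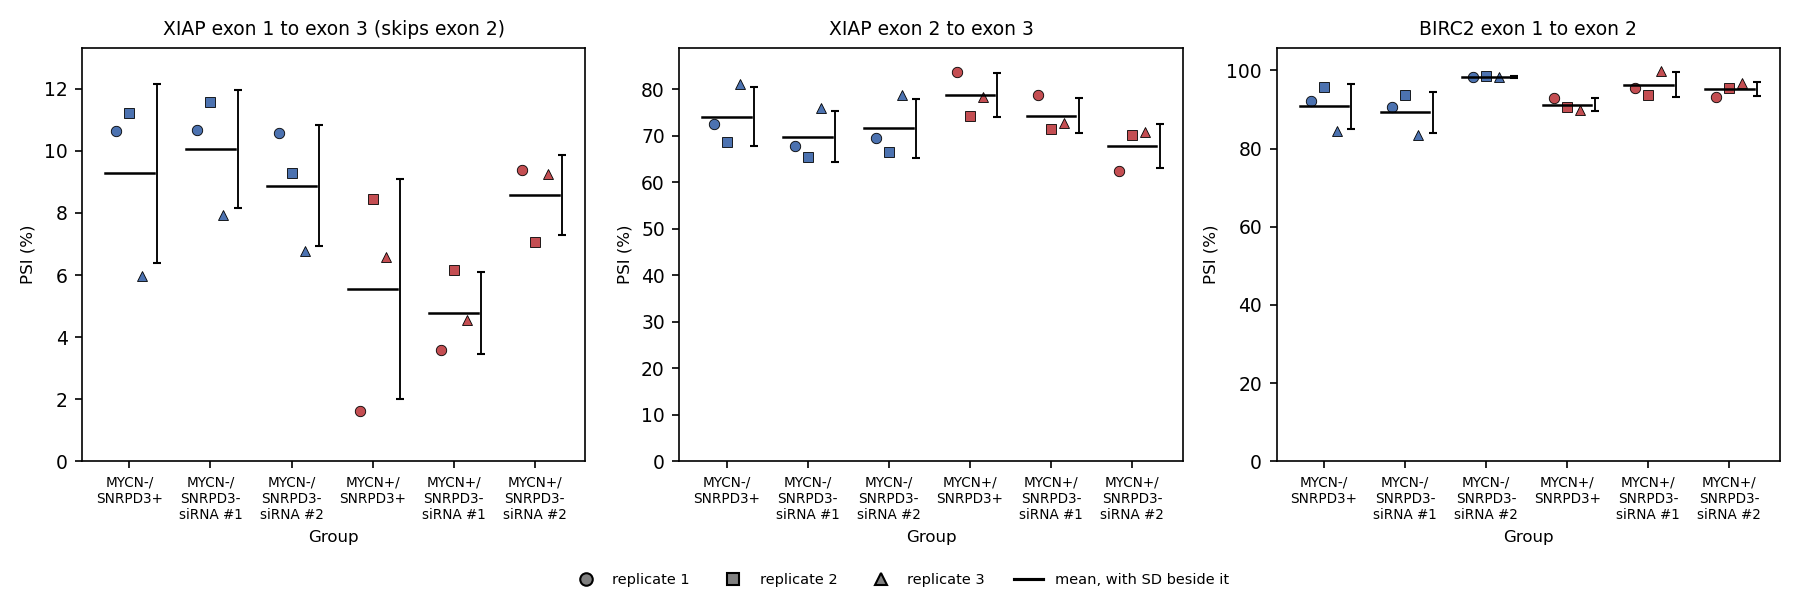
PSI in percent (y axes, each from 0) of the XIAP junctions from exon 1 to exon 3 and from exon 2 to exon 3 and of the BIRC2 junction from exon 1 to exon 2 in the 6 groups (x axes). Symbols are the 3 replicates, lines group means and bars beside them SD. The XIAP skip of exon 2 lies between 1.60% and 11.6% with overlapping groups, and BIRC2 exon 1 is at or above 98.2% in MYCN-/SNRPD3- siRNA #2.

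Of 22 other genes of the pathway, 17 had introns in the table (320 introns, 194 fitted). NAIP, BIRC7, BIRC8, XAF1 and TRAF1 had none. Among the caspases CASP8 and CASP9 and the chromosomal passenger partners of BIRC5 (AURKB, INCENP and CDCA8), limma called 0 introns in any of the 11 comparisons. The same held for the ubiquitin pathway genes listed with BIRC6 (USP8, RNF41 and UBE2O). The smallest adjusted limma p in all of these genes was 0.0954, in USP8. Over all 17 genes, 2 to 17 of the 194 introns (1.03% to 8.76%) had an unadjusted p under 0.05, depending on the comparison, against 3.97% to 11.7% of all introns. The MYCN average called 2 of the 194, both higher, against the 1.23% of all introns given above, and 16 (8.25%) had an unadjusted p under 0.05, against 11.7% of all introns. One was an intron of HTRA2, a mitochondrial protease that antagonises XIAP (74531925 to 74532820 on chromosome 2), with 2.89% to 4.53% (median 3.76%) in 9 MYCN- libraries and 5.93% to 9.53% (median 7.23%) in 9 MYCN+ libraries. This intron is named because it was called, and the difference was 0.84 ± 0.11 (SE) log2 odds (limma, adjusted p = 0.00305). The other was an intron of MAP3K7, the kinase TAK1 that acts with XIAP in signalling (90516681 to 90519258 on chromosome 6), with 7.46% ± 1.28 without MYCN and 11% ± 1.86 with MYCN (0.56 ± 0.10 log2 odds, limma, adjusted p = 0.0156). The MAP3K7 intron was also called with MYCN and siRNA #1 against wildtype (0.92 ± 0.17 log2 odds, limma, adjusted p = 0.05 after rounding up), a call that 16 of the 18 fits without 1 library lost.

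The introns of other genes whose log2 odds were most like those of the BIRC5 junction from exon 2 to exon 4 over the 18 libraries lay in TCF7L2, DGUOK and CDC25A, out of 120542 candidates. Pearson's r was 0.913, 0.908 and 0.891, Spearman's rho 0.878, 0.839 and 0.80, and Pearson's r without the 2 farthest libraries 0.856, 0.855 and 0.775. These are the highest of many correlations over libraries that share their groups, and are given as a description.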

How the data were processed

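Stranded messenger RNA libraries of 6 groups with 3 replicates were aligned by the authors to hg38 with STAR 2.5.0a, handled with SAMtools 1.3.1 and passed to leafcutter. The deposited PSI is a fraction per intron and library, and PSI sums to 1 within a cluster and is never exactly 0 or 1, with the smoothing not given in the sources used here. A further deposited table holds the authors' own comparisons (FDR and delta PSI) and was not used. All 18 columns matched a library, and 0 were left unmatched. Depth is unknown, so that no interval was computed and replicate spread is the only error. The labels do not say whether replicates are separate cultures, whereas the study describes them as independent biological replicates. In either case p-values measure the spread between these libraries.

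Introns were placed on GENCODE release 44 (the study used release 28), and exons were numbered along the Ensembl canonical transcript. The fit used limma 3.58.1 in R 4.3.3 with 12 residual and 1.17 prior degrees of freedom, on PSI between 0.01 and 0.99 on average with an offset of 0.01. BIRC5 shares were compared by exact permutation in Python 3.11.15 (numpy 2.4.6, pandas 2.3.3), and matplotlib 3.10.9 drew the plots. Both procedures were tested on simulated data. Named introns were all of BIRC5, called introns, annotated skips with a mean PSI of at least 1%, and the 3 largest differences between MYCN with knockdown and wildtype in each other gene. Members and lists were chosen with earlier results of these data known. Alternatives were a replicate block, offsets of 0.001 and 0.05, no PSI filter or 0.05 to 0.95, untransformed PSI, trend and robust options, only the groups compared, other share measures, both splice sites required and leaving out each library in turn. Averaged share tests and the sum over both BIRC6 exon 25 skips were added after seeing the data. The MYCN and SNRPD3 genes themselves were not analysed here. Some genes of the pathway list and some sequences are not reported here.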

Additional observations from a re-analysis of the deposited data

How the results depend on the processing

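The count of called member introns stayed at 0 in every comparison but the MYCN average under the offsets, the stricter PSI range, untransformed PSI, the trend and robust options and each left-out library. Without a PSI filter it was 1 for MYCN-/SNRPD3- siRNA #2 against wildtype, for the interaction with siRNA #2 and for the knockdown average, and 2 for the MYCN average. With only the groups compared it was 1 for the first 2 of these. The added intron was BIRC3 exon 6 to exon 8 each time. Its PSI was 4.09% to 5.59% in MYCN-/SNRPD3- siRNA #2 and at most 0.422% in the other 15 libraries. Its calls in both averages thus rest on that group, through which it also passed the filter when only the groups compared were fitted. For the MYCN average the count was 0 with an offset of 0.05, a mean PSI from 0.05 to 0.95, untransformed PSI, and the trend and robust options, and 0 to 1 without 1 library, where the stricter range does not test the BIRC6 intron and the other causes were not tested.

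Signs turned in comparisons of the BIRC5 shares that were near 0. MYCN alone changed exon 3B by 0.0142 points when the junction was taken alone, and by -0.125 to 0.0554 without 1 library. Without 1 library, MYCN alone changed exon 3 skipping by -1.71 to 0.139, the interaction was -1.60 to 0.636 for exon 2B and -0.154 to 0.0329 for exon 3B, and the MYCN average of exon 3 skipping was -0.58 to 1.08, at -0.58 without MYCN+/SNRPD3- siRNA #1 replicate 3 and -0.0398 without MYCN+/SNRPD3- siRNA #2 replicate 3. The exon 3B knockdown average was -0.468 to -0.377 without 1 library.

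Libraries with the same replicate number in different groups did not deviate together, with a mean correlation of 0.00615 over 45 pairs against -0.00307 over 90 pairs with different numbers. As an alternative, a replicate block left the count of called member introns at 1 for the MYCN average and at 0 elsewhere, and the BIRC6 adjusted p from limma was 0.0266. In exact permutations within replicate numbers, the exon 3B knockdown average of -0.436 points had p of 0.00137 and 0.0288 when adjusted. No share test changed its side of the threshold, while the MAP3K7 call with siRNA #1 against wildtype had an adjusted limma p of 0.0501. The depth is unknown for all introns, including those with a PSI near 0 such as BIRC5 exon 3B and the BIRC6 and BIRC3 skips.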
